A study of Mus musculus with 24 samples.

Results

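Gm94, Tmem56, Lnx1, Gpsm1, Nfe2, Miat and Sybu are 7 genes whose read counts in the skin of Dsg1-deficient mouse embryos were clearly lower than in wild-type skin. They are 7 of the 54087 gene symbols in the count table and were chosen by their counts in the KO and WT columns, with no numeric threshold, so their KO against WT values are a description and carry no test. RNA-Seq was performed on flash-frozen dorsal skin at embryonic day E18.5, with both sexes included. The WT group had both copies of the desmoglein 1 (Dsg1) cluster, the HET group had 1 copy (Dsg1+/-) and the KO group had none (Dsg1-/-). The tandem genes Dsg1a, Dsg1b and Dsg1c had been deleted together with CRISPR/Cas9 in C57BL/6J zygotes, and the line descended from a single founder, so every HET and KO embryo carried the same deletion. Each genotype had 8 libraries, and libraries with the same title number and genotype were summed, which gave 5 columns per genotype and 15 in all.

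Dsg1 is an adhesion protein of the desmosomes that hold the upper, differentiating layers of the epidermis together. Late in fetal life these layers form the cornified envelope, a protein shell to which late cornified envelope (Lce) proteins, filaggrin and loricrin contribute. The 7 genes belong to no single pathway. Lnx1 encodes a ubiquitin ligase with PDZ domains that binds the Notch regulator Numb, and Gpsm1 encodes a G protein regulator whose family takes part in orienting the mitotic spindle. Nfe2 encodes a transcription factor known for its role in platelet formation and globin gene expression, and Sybu encodes syntabulin, which links vesicle cargo to kinesin motors. Tmem56, now named Tlcd4, encodes a membrane protein with a TLC domain, Miat is a long noncoding RNA, and Gm94 is a predicted protein-coding gene.

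The 24 libraries held 8.98 to 20.96 M counts (M, mega) and the 15 columns held 15.3 to 33.7 M. CPM is a count scaled to the size of its library. The summed level of the Dsg1 genes was 720 to 942 CPM in the WT libraries, 361 to 495 CPM in the HET libraries and at most 1.34 CPM in the KO libraries, so each library carried the Dsg1 level of its label. The skin label was borne out by keratins, since Krt10 of the suprabasal layers averaged 32700 CPM and Krt5 of the basal layer 2980 CPM in WT. The 2 libraries summed into WT replicate 2 did not look like 1 embryo. The sum of Y-linked genes was 338 CPM in one and 0.157 CPM in the other, and Xist was 0.275 and 574 CPM. Values without this column are therefore given for the comparisons of the 7 genes with WT. Apart from that column, the Y-linked sum was 261 to 411 CPM in WT replicate 5, HET replicates 1, 4 and 5 and KO replicates 2, 3 and 4. In the remaining columns it was at most 0.358 CPM, so the sexes were not balanced between the genotypes. What a title number stands for is not stated, so p-values measure the spread between these columns, which may be technical in part. In whole skin, fewer cells of a type and less RNA per cell cannot be told apart.

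Levels differed widely between the genes. Per kilobase of exon in the annotation, the WT level was 895 CPM for Gm94, 9.28 for Gpsm1, 5.95 for Lnx1, 2.78 for Nfe2, 2.5 for Tmem56, 1.53 for Sybu and 0.939 for Miat. Gm94 was thus the only abundant transcript among them, and it lies on chromosome 18, which also carries the Dsg1 cluster. The others lie on chromosomes 2 (Gpsm1), 3 (Tmem56), 5 (Lnx1 and Miat) and 15 (Nfe2 and Sybu).

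Lnx1 had the largest drop on the log2 scale. It was at 18.9, 20.1, 20.9, 28.7 and 25.4 CPM in WT replicates 1 to 5 and at 1.23, 13.6, 1.02, 3.70 and 2.62 CPM in KO replicates 1 to 5. All 5 KO columns lay below all 5 WT columns, but KO replicate 2 stood far above the other KO columns. The KO mean of 4.43 ± 5.23 CPM (SD, n = 5) was 19.4% of the WT mean of 22.8 ± 4.12 CPM, and 9.41% without KO replicate 2. The ratio of the highest to the lowest KO column was 13.3, against 1.52 in WT. The low KO values rested on few reads, with 41 counts in KO replicate 1 and 24 in KO replicate 3, compared with 368 in KO replicate 2.

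Tmem56 showed a similar arrangement of columns. It was at 18.8, 18.2, 17.1, 22 and 22.2 CPM in WT and at 3.85, 10.3, 2.34, 4.01 and 3 CPM in KO. The groups did not overlap, and KO replicate 2 was again the highest KO column. Its KO mean was 4.7 ± 3.2 CPM (SD, n = 5) against 19.7 ± 2.33 in WT, or 23.9% of WT, and 16.8% without KO replicate 2.

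Because Lnx1 and Tmem56 also deviated together within genotypes, as described after the levels, their promoter windows from RefSeq on GRCm38.p6 are printed here. Each runs from 250 bases before to 50 bases after an annotated gene start, 5′ to 3′ along the gene, and capitals mark the only matches to the motifs searched. Lnx1 occupies chr5:74702854-74703153 on the minus strand, and Tmem56 chr3:121263291-121263590 on the minus strand. The Tmem56 window is at a RefSeq start that lies inside the gene as annotated in GENCODE, which begins at chr3:121283098. No window was searched at that GENCODE start.
Lnx1: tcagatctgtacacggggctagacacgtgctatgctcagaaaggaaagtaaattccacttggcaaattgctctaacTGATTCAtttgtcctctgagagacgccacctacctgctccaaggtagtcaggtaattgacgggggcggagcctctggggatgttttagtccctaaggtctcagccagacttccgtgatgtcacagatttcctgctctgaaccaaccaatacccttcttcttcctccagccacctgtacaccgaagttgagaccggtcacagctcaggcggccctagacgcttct
Tmem56: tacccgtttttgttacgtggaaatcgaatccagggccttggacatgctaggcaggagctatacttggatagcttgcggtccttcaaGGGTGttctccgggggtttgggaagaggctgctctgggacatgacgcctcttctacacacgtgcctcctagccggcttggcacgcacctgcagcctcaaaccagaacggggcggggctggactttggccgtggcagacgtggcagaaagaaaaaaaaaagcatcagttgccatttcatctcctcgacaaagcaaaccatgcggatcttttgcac
The capitals in Lnx1 are a match to the AP-1 motif TGANTCA, and those in Tmem56 are a match to the KLF-like motif CACCC on the opposite strand. Neither window held GATAA (GATA-like), AACCGGTT (grainyhead-like) or the NF-E2-like motif, in which every match is also an AP-1 match. Of 32851 mouse promoter windows of this length, searched on both strands, 7.81% held the AP-1 motif, 57.5% the KLF-like, 25.4% the GATA-like, 0.146% the grainyhead-like and 0.155% the NF-E2-like motif. The windows of Lnx1 and Tmem56 therefore shared none of the 5 motifs. Promoter windows were matched for 4 of the 7 genes. Of the 8 windows matched, 1 held the AP-1 motif, and a second Tmem56 window overlapped the one printed.

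Gm94 was lower in KO in absolute terms by far more than the other genes. It was at 664, 698, 748, 540 and 699 CPM in WT and at 86.2, 334, 124, 154 and 265 CPM in KO. No KO column reached the lowest WT column, and KO replicates 2 and 5 were the highest of the KO columns. The KO mean of 193 ± 103 CPM (SD, n = 5) was 28.8% of the WT mean of 670 ± 78.7 CPM. At 2867 to 9059 counts per KO column, counting error was small beside the spread between columns.

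Gpsm1 fell less, and with less spread. It was at 48.4, 53.4, 54.8, 51.6 and 41.5 CPM in WT and at 21.3, 31.5, 22, 17.5 and 22.2 CPM in KO. The groups did not overlap. The KO mean was 22.9 ± 5.18 CPM (SD, n = 5), or 45.8% of the WT mean of 50 ± 5.3 CPM, and the highest KO column was 1.8 times the lowest.

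Nfe2 had the most uniform WT values of the 7 genes, at 8.15, 8.06, 8.06, 9.31 and 7.96 CPM. In KO it was at 0.962, 5.53, 3.06, 2.36 and 2.29 CPM, so that KO replicate 2 was the highest and KO replicate 1 the lowest. The KO mean of 2.84 ± 1.69 CPM (SD, n = 5) was 34.2% of the WT mean of 8.31 ± 0.567 CPM.

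Sybu was at 12.2, 11.6, 10.5, 10.7 and 13.8 CPM in WT and at 6.07, 8.30, 6.09, 4.99 and 7.19 CPM in KO, with no overlap. Its KO mean of 6.53 ± 1.26 CPM (SD, n = 5) was 55.5% of the WT mean of 11.7 ± 1.36 CPM, and its KO columns were the most alike of the 7 genes, with a coefficient of variation of 19.3%.

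Miat had the smallest difference, and it was the only one of the 7 genes whose WT and KO columns overlapped. It was at 6.11, 8.46, 10.6, 10.4 and 8.06 CPM in WT and at 4.48, 6.60, 7.19, 4.21 and 4.71 CPM in KO. KO replicates 2 and 3 lay above WT replicate 1. The KO mean of 5.44 ± 1.36 CPM (SD, n = 5) was 62.3% of the WT mean of 8.73 ± 1.85 CPM.

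**Figure D1:**
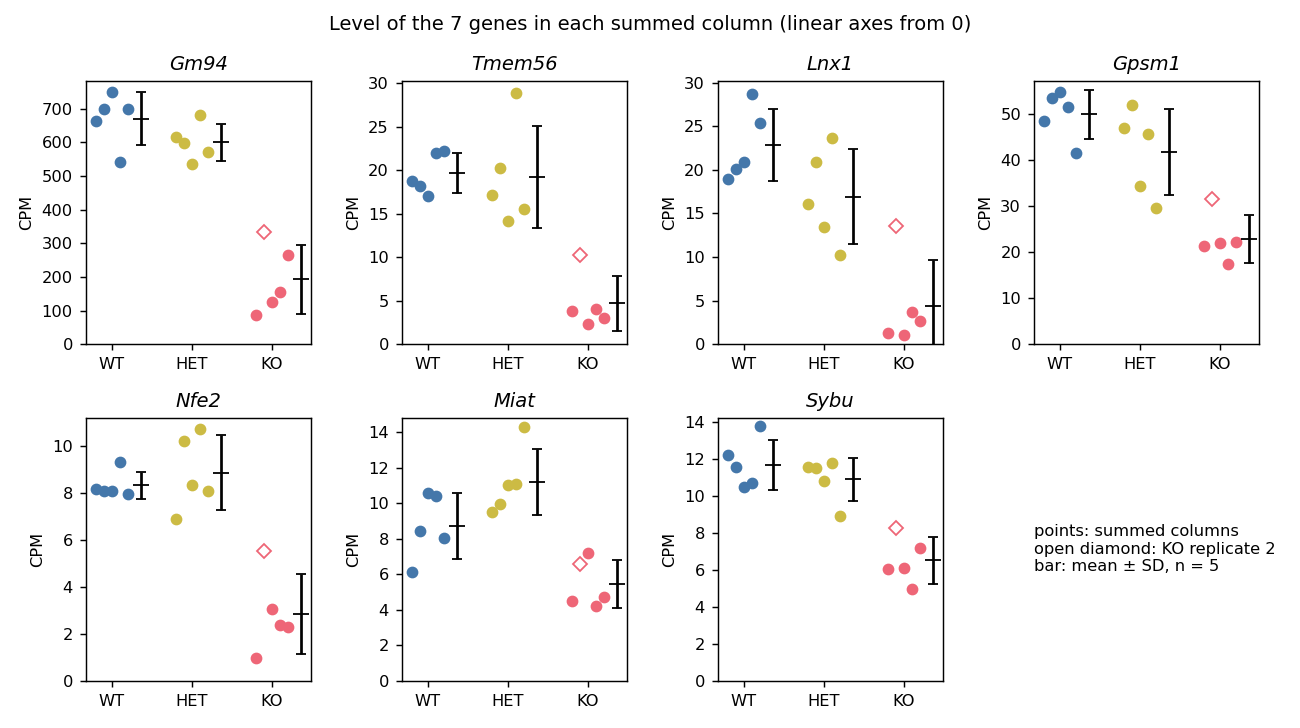
Level of each of the 7 genes (y axis, CPM, linear from 0) in the 5 WT, 5 HET and 5 KO columns (x axis, genotype), with the mean ± SD of each genotype as a black bar. KO replicate 2 (open diamond) is the highest KO column for every gene but Miat, and the KO columns lie below all WT columns for every gene but Miat.

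Without WT replicate 2, the column made of discordant libraries, the KO means were 18.9% (Lnx1) to 61.9% (Miat) of the WT means, compared with 19.4% to 62.3% with it. The 2 libraries of that column differed most for Gm94, at 525 and 833 CPM, and their ratio of 1.59 was the largest between 2 libraries of one column for any of the 7 genes. The median ratio was 1.02 for Gpsm1 to 1.17 for Sybu over the 9 columns made of 2 libraries. By the format of their titles the libraries fall into title series 1 (9 libraries) and title series 2 (15 libraries). Every title number of series 1 recurs in series 2. The KO mean of Lnx1 was 20.5% of WT in series 1 and 21.6% in series 2, and that of Miat was 67.3% and 57.4%. These values come from the counts that chose the genes, so they are not a second test of the drop.

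On the log2 scale the KO against WT differences were -2.35 ± 0.56 (Lnx1, SE of the edgeR fit), -2.05 ± 0.33 (Tmem56), -1.80 ± 0.28 (Gm94), -1.55 ± 0.30 (Nfe2), -1.12 ± 0.16 (Gpsm1), -0.84 ± 0.13 (Sybu) and -0.68 ± 0.18 (Miat). Their median was -1.55, and that of all genes tested was -0.01. A gene was called lower at a Benjamini-Hochberg adjusted p of at most 0.1 and a log2 fold change of at most -1, which 32 of 17094 genes tested met (0.187%). Of the 7 genes, 5 met it, and 3 did without WT replicate 1, 2 or 3 or without KO replicate 4. With only the KO and WT columns fitted 2 met it, and in title series 1 alone 0 did. Sybu and Miat did not, since both differences were smaller than 1 on the log2 scale, and Miat also missed the limit on the adjusted p. Groups that did not overlap, with every KO column below every WT column, were found for 300 of all genes tested (1.76%) and for 6 of the 7. Nothing is read from these counts, because the same contrast had chosen the genes.

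The HET columns did not enter the choice of genes, although the WT columns that HET is compared with did. No HET level of the 7 genes was called different from WT. Lnx1 was at 16.1, 20.9, 13.4, 23.6 and 10.2 CPM in HET replicates 1 to 5, and Gpsm1 was at 46.9, 51.9, 34.3, 45.7 and 29.6 CPM. For both genes HET replicates 3 and 5 were the lowest, and both lay below every WT column. The HET mean was 74% of WT for Lnx1 and 83.4% for Gpsm1, with log2 differences of -0.44 ± 0.53 and -0.26 ± 0.16 (SE), which lie within 2 SE of 0.

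Gm94 was at 615, 599, 536, 681 and 570 CPM in HET, and Sybu was at 11.6, 11.5, 10.8, 11.8 and 8.95 CPM. In each case 4 of 5 HET columns lay inside the WT range and 1 lay below it. The HET means were 89.6% and 92.9% of WT, with log2 differences of -0.16 ± 0.27 and -0.11 ± 0.13 (SE).

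Tmem56 was at 17.2, 20.3, 14.2, 28.9 and 15.6 CPM in HET, on both sides of the WT range, and its mean was 97.9% of WT (log2 difference -0.03 ± 0.31, SE). The sign of this difference turned when single columns were left out. Nfe2 was at 6.87, 10.2, 8.32, 10.7 and 8.09 CPM, with a mean of 106% of WT (0.09 ± 0.29). Miat was at 9.50, 9.97, 11, 11.1 and 14.3 CPM, so that 3 of 5 HET columns exceeded every WT column and none lay below the WT range. Its HET mean was 128% of WT, and its log2 difference of 0.35 ± 0.18 had the smallest unadjusted p of the 7, at 0.0677 with the edgeR quasi-likelihood test.

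In the HET against WT comparison no gene was called lower by edgeR (0% of 17094), and DESeq2 called none either. The smallest adjusted p over all genes was 0.135 in edgeR. Even the Dsg1 genes were not called, at 361 to 495 CPM in HET libraries against 720 to 942 CPM in WT libraries. The lack of a call therefore does not show that HET equals WT. At an unadjusted p under 0.05 were 0 of the 7 genes and 270 of all genes tested. Every adjusted p among the 7 was 1. Nor did HET lie wholly below WT for any of the 7, against 0.234% of all genes. The median log2 difference of the 7 was -0.11. Differences of up to 0.35 for Miat and 0.44 for Lnx1 were thus not resolved with 5 columns per genotype. Without WT replicate 2, the HET against WT differences of the 7 genes ran from -0.48 (Lnx1) to 0.34 (Miat).

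Set against HET, the KO columns differed by -2.02 ± 0.33 (Tmem56), -1.92 ± 0.56 (Lnx1), -1.64 ± 0.28 (Gm94), -1.63 ± 0.30 (Nfe2), -1.03 ± 0.18 (Miat), -0.86 ± 0.16 (Gpsm1) and -0.74 ± 0.13 (Sybu) on the log2 scale (SE). This comparison used the KO columns that had chosen the genes, and it is not a second test of the drop. Under the call rule 4 of the 7 genes (Gm94, Tmem56, Nfe2 and Miat) were lower, beside 0.0995% of all genes tested. Every KO column lay below every HET column for 5 of the 7 genes, beside 1.3% of all genes. The exceptions were Lnx1 and Gpsm1, in which KO replicate 2 (13.6 and 31.5 CPM) lay above HET replicate 5 (10.2 and 29.6 CPM). The number of the 7 genes called against HET was 1 without KO replicate 4 and 2 without KO replicate 1 or HET replicate 3 or 5, and without KO replicate 2 it was 6. In title series 1 alone, and with only the KO and HET columns fitted, it was 0.

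**Figure D2:**
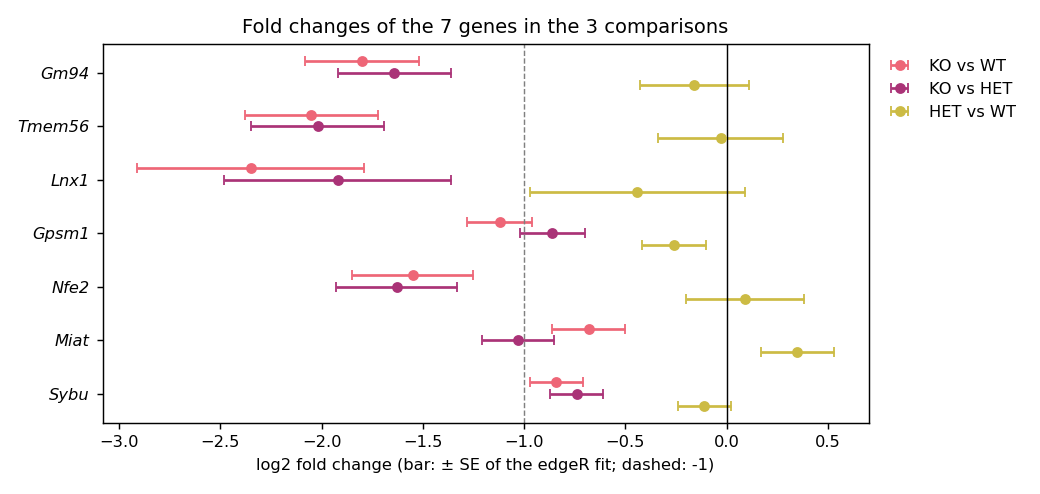
Log2 fold change (x axis) of each of the 7 genes (y axis) for KO against WT, KO against HET and HET against WT, with the SE of the edgeR fit as bars and a dashed line at -1. The HET against WT values lie between -0.44 and 0.35, while the KO values lie at -0.68 or below in both KO comparisons, which share the KO columns.

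The Lce1 genes, which encode late cornified envelope proteins, were low in the same KO columns. Their summed level was 4420, 3610, 3830, 3360 and 3140 CPM in WT, 3390, 4510, 2560, 3770 and 2120 CPM in HET and 196, 2350, 120, 803 and 519 CPM in KO. KO replicate 2 was again the highest KO column and lay inside the HET range. All 14 Lce1 genes had a negative KO against WT difference (-2.65 to -1.38, log2), and none was called, with adjusted p of 0.102 or above in edgeR. Over all genes tested 0.322% were called in either direction, so a count of 0 in this or any of the lists that follow is near the background and nothing is read from it. Near-identical Lce1 copies can share reads, so only their sum was used for covariation.

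Other late differentiation genes were mixed in direction. Of 24 listed, among them filaggrin (Flg), loricrin (Lor), Casp14 and the Lce3 genes, 20 were tested, of which 13 had a positive and 7 a negative difference, and none was called. The lowest were the late envelope genes Lce6a (-1.59) and Crct1 (-1.19), and the median was 0.24. Their mean log2(CPM + 1), called the late differentiation score here, was 7.69 in WT, 7.68 in HET and 7.62 in KO. Its SD was 0.11 in WT and 0.67 in KO, so the KO columns differed more from one another than WT columns did. KO replicate 2 had the highest score of all 15 columns (8.58) and KO replicate 3 the lowest (6.82).

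To ask whether the 7 genes varied with these measures other than through genotype, each value of log2(CPM + 1) was set against its genotype mean, and the deviations were correlated over the 15 columns. With 7 genes, the Lce1 sum, the late differentiation score, an erythroid score and the pairs of the 7 genes, 42 relations were computed. Each had a two-sided permutation test within genotypes, and p-values were adjusted over the 42. By Pearson's r, 4 of 42 had an adjusted p of at most 0.1, and all 4 involved Lnx1 or Tmem56.

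Of the measures correlated, Lnx1 followed the late differentiation score most closely. Pearson's r was 0.96 (permutation p = 4e-05, adjusted p = 0.00168) and Spearman's rho was 0.90 (permutation p = 0.00048, adjusted p = 0.0202). Without the 2 columns farthest from the median of the score, KO replicates 2 and 3, r was 0.92, and over the WT and HET columns alone it was 0.88 (permutation test, adjusted p = 0.076). Of 14610 genes outside the late list with a mean of at least 1 CPM, 14 (0.0958%) had an r as high as that of Lnx1. The KO columns ran in the same order, replicates 2, 4, 5, 1 and 3 from highest to lowest, for Lnx1, the late differentiation score and the Lce1 sum. This order was not particular to late genes. The mean log2(CPM + 1) of 6 early suprabasal genes (Krt1, Krt10, Krtdap, Sbsn, Ivl and Dsc1) had it too, at 12.21, 11.9, 11.77, 11.61 and 11.51. That mean was not among the measures correlated, so whether Lnx1 follows it as closely was not tested.

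With the Lce1 sum, Lnx1 had a Pearson's r of 0.92 (permutation p = 0.00117, adjusted p = 0.0165) and a Spearman's rho of 0.74 (permutation p = 0.0156, adjusted p = 0.164). The rank value did not pass the adjustment. Without KO replicates 2 and 3, r was 0.76, over WT and HET alone it was 0.60 (permutation test, adjusted p = 0.52), and 0.246% of 14615 other genes had an r as high. Leaving out KO replicate 2 alone gave 0.80 (permutation test, adjusted p = 0.113) and leaving out KO replicate 1 gave 0.90 (adjusted p = 0.166), so the call was lost without either column.

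Tmem56 also moved with the late differentiation score, at r = 0.88 (permutation p = 0.00147, adjusted p = 0.0165) and rho = 0.82 (permutation p = 0.00266, adjusted p = 0.0372). Its r over WT and HET was 0.87 (permutation test, adjusted p = 0.076), whereas without KO replicate 2 it was 0.71 (adjusted p = 0.113), which ended the call, without KO replicates 2 and 3 it was 0.63, and 0.917% of other genes had an r as high. Between Lnx1 and Tmem56 r was 0.90 (permutation p = 0.00157, adjusted p = 0.0165) and rho was 0.82 (permutation p = 0.00141, adjusted p = 0.0296). Without KO replicate 2 alone r for the pair was 0.71, and without KO replicates 2 and 3 it was 0.65. Tmem56 and the Lce1 sum had an r of 0.76 (permutation p = 0.02, adjusted p = 0.168), which was 0.23 without those columns, so that relation rests on them. Without KO replicate 5 it was 0.80 (permutation test, adjusted p = 0.0962).

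**Figure D3:**
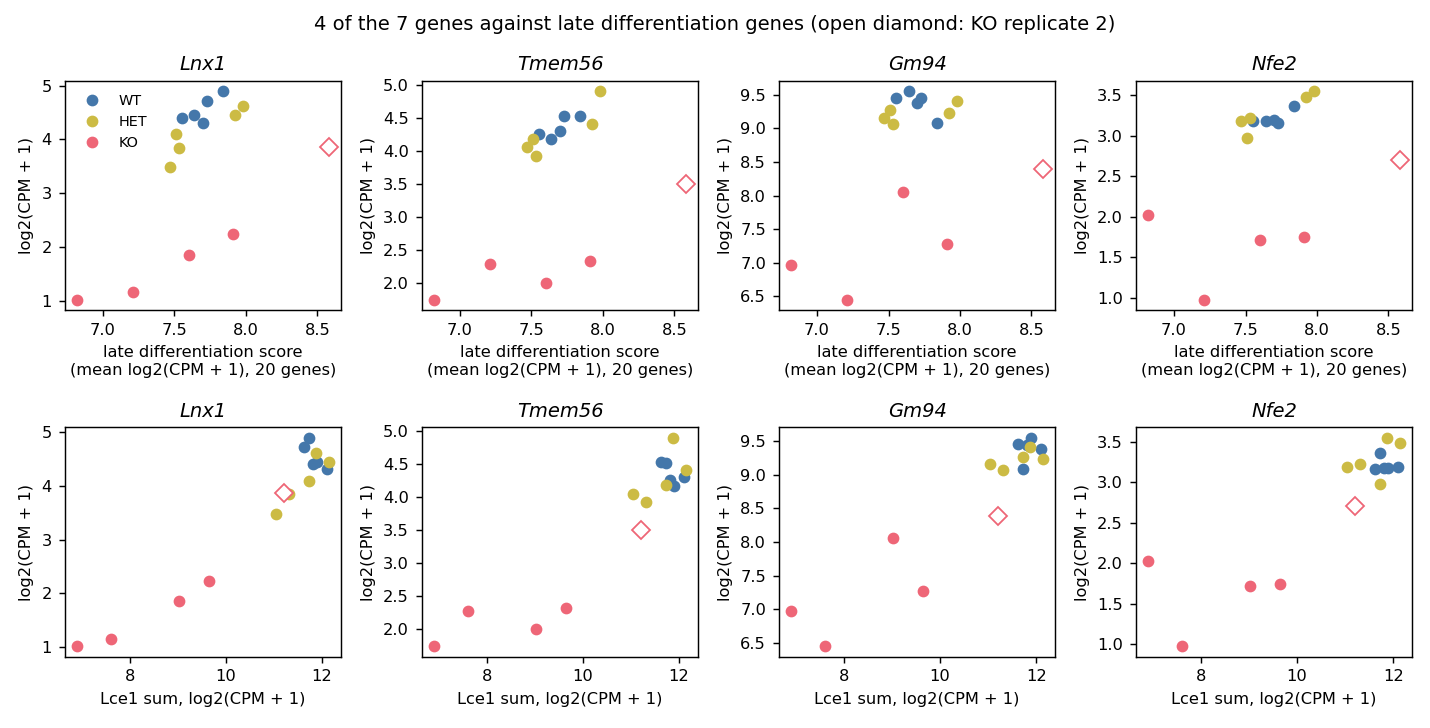
Log2(CPM + 1) of Lnx1, Tmem56, Gm94 and Nfe2 (y axes) in the 15 columns against the late differentiation score (upper row, mean log2(CPM + 1) of 20 genes) and the Lce1 sum (lower row, log2(CPM + 1)), coloured by genotype. In each panel the KO points lie beneath all WT and HET points, except that KO replicate 2 lies among the lower HET points for Lnx1, and Lnx1 rises with the score both among KO columns and among the others; the open diamond is KO replicate 2.

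The remaining 5 genes showed no relation to either measure that passed the adjustment over 42 by Pearson's r. With the Lce1 sum r was 0.78 for Gm94, 0.61 for Nfe2, 0.48 for Gpsm1, 0.42 for Sybu and -0.15 for Miat. With the late differentiation score it was 0.70 for Gm94, 0.64 for Nfe2, 0.45 for Gpsm1, 0.42 for Sybu and -0.06 for Miat. A share of 1.55% of all genes had an r with the Lce1 sum as high as that of Gm94, and 63.7% had one as high as that of Miat. Adjusted p-values with these 2 measures ranged from 0.265 for Gm94 to 0.906 for Miat (permutation tests). In the 10 WT and HET columns alone, a smaller set, Nfe2 had an r of 0.89 with the late differentiation score and Gpsm1 one of 0.88 with the Lce1 sum (permutation tests, adjusted p = 0.076 for both). Nfe2 had a like value of 0.89 without KO replicates 2 and 3, where the whole set gave 0.64. Single KO columns decided several of these values, in both directions. Without KO replicate 2, r with the late differentiation score was 0.23 for Nfe2, 0.07 for Gpsm1 and 0.01 for Sybu. With the Lce1 sum r was then 0.15 for Nfe2, 0.13 for Gpsm1 and 0.01 for Sybu. Without KO replicate 3, Nfe2 had an r of 0.96 with the late differentiation score (permutation test, adjusted p = 0.0115). Without KO replicate 4, Gpsm1 had an r of 0.66 with the Lce1 sum (permutation test, adjusted p = 0.0273), and Sybu had an r of 0.69 with the Lce1 sum (adjusted p = 0.057) and of 0.66 with the late differentiation score (adjusted p = 0.0679).

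**Figure D4:**
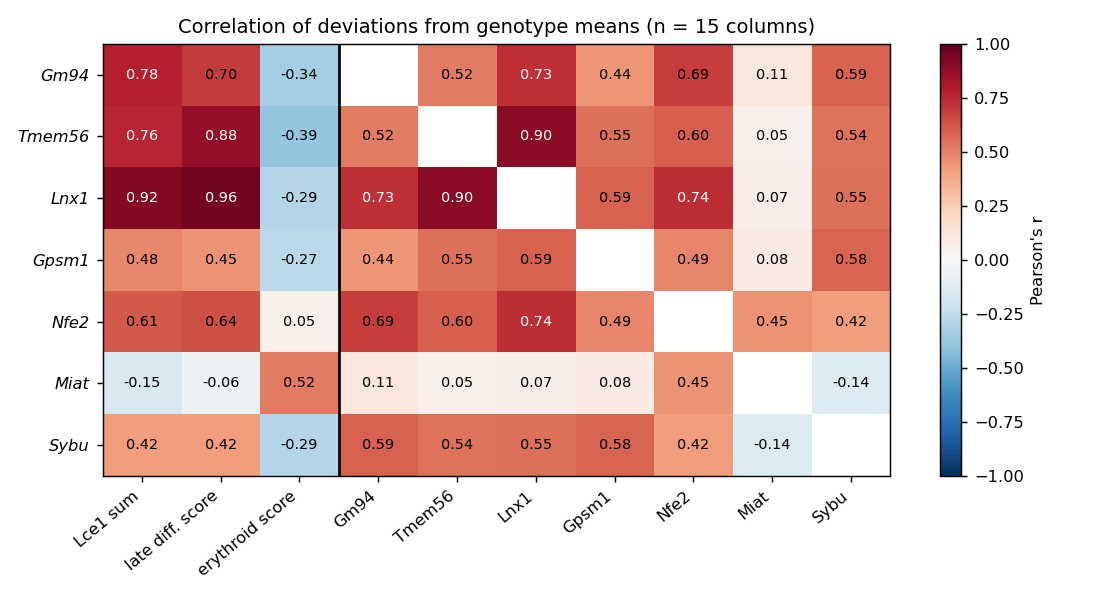
Pearson's r of deviations from genotype means over 15 columns (colour and printed value) between each of the 7 genes (rows) and the Lce1 sum, the late differentiation score, the erythroid score and the other 6 genes (columns). The highest values are those of Lnx1 with the late differentiation score (0.96) and the Lce1 sum (0.92), of Lnx1 with Tmem56 (0.90) and of Tmem56 with the late differentiation score (0.88), and Miat lies between -0.15 and 0.52.

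Among the pairs of the 7 genes, 20 of 21 correlations were positive, with a median of 0.54, and only that of Lnx1 and Tmem56 passed the adjustment. The pairs share libraries and the high KO replicate 2, and over WT and HET alone the median was 0.30. Miat and Sybu had the only negative value, -0.14.

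Over the whole transcriptome, the genes whose deviations were most like those of Lnx1 were Rnf225 (r = 0.97), Nkpd1 (0.97) and Esyt3 (0.96), out of 14629 genes with a mean of at least 1 CPM. These are descriptions with no test, and they again share all 15 columns. For Tmem56 they were Aim1 (0.95), Rnase1 (0.94) and Nrd1 (0.93), and for Gm94 they were Anxa1 (0.91), Defb1 (0.90) and Retreg1 (0.90). For Nfe2 they were Dedd2 (0.91), Aspg (0.89) and Mppe1 (0.89), and for Gpsm1 they were Il17re (0.90), Tmprss11e (0.83) and Casp9 (0.82). Sybu was most like Rps3a1 (0.90), Stag2 (0.89) and Rbm48 (0.87), and Miat was most like AC158114.3 (0.85), Asb13 (0.80) and RP23-169H13.6 (0.80). None of these 21 genes was called in KO against WT, beside 0.322% of all genes. The KO difference of Anxa1, an abundant annexin at 603 CPM in WT, was -0.01 on the log2 scale, and the most negative of the 21 was that of Rnf225, at -0.87.

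Genes related to the 7, or acting with their products, were examined as lists, with no list for Gm94. No member of any list was called in KO against WT, beside 0.322% of all genes. Of 11 genes of Numb, Notch and Lnx function, 9 had a positive and 2 a negative difference (median 0.10). Lnx2, the closest relative of Lnx1, was at 0.22 ± 0.10 on the log2 scale (SE), Numb at 0.29 ± 0.10 and its relative Numbl at -0.34 ± 0.11. Of 11 genes of spindle orientation and inhibitory G proteins, 8 were positive and 3 negative (median 0.12), among them Gpsm2, the close relative of Gpsm1, at 0.12 ± 0.10, and Insc, a spindle adaptor, at -0.38 ± 0.17.

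Of 11 genes with a TLC domain, 6 were positive and 5 negative (median 0.03). Cers3, the ceramide synthase of the epidermal barrier, was at 0.49 ± 0.14 with an adjusted p of 0.111 in edgeR. Of 8 genes of the Nfe2 family and its small Maf partners, 7 were positive and 1 negative (median 0.20), with Nfe2l2, the regulator of antioxidant genes, at 0.21 ± 0.08 and the repressor Bach1 at 0.31 ± 0.12. Of 8 tested genes of kinesin and syntaxin transport, which syntabulin connects, 2 were positive and 6 negative (median -0.16). Among the positive was Kif5b, a kinesin-1 heavy chain, at 0.18 ± 0.08, and among the negative was Klc1, at -0.17 ± 0.08. All 3 genes of RNA-binding proteins listed for Miat were positive (0.02 to 0.11).

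Nfe2 is best known from blood cells, so markers of these cells were set beside it. Of 10 tested erythroid genes, 9 had a positive KO difference (median 0.54) and none was called, and their summed level was 1650 to 5160 CPM in WT, 1860 to 6080 in HET and 3110 to 9050 in KO. The erythroid score and Nfe2 had an r of 0.05 (permutation p = 0.872, adjusted p = 0.906). Of 8 listed megakaryocyte and platelet genes 5 were tested, with 2 positive and 3 negative. The integrin Itga2b was at 10.2 ± 0.662 CPM in WT and 8.03 ± 2.02 CPM in KO (SD, n = 5), and platelet factor Pf4 was at 43.1 ± 12.7 and 35.4 ± 8.89 CPM. In HET, where the Nfe2 mean was 106% of WT, Itga2b was at 10.1 ± 1.92 CPM and Pf4 at 33.5 ± 6.2 CPM. The summed platelet markers reached 290 CPM in KO replicate 4, largely through Ppbp, and were 36.1 to 58.2 CPM in the other KO columns, against 42.9 to 71.8 CPM in WT and 35.5 to 53.9 CPM in HET. Nfe2 in KO replicate 4 was 2.36 CPM, close to KO replicate 5. The part of blood cell content in the Nfe2 values was not tested beyond these figures.

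Of the markers of other skin cells, none was called in KO against WT, beside 0.322% of all genes. Positive and negative differences numbered 9 and 1 for hair follicle, 5 and 1 for endothelium, 6 and 0 for melanocytes, 1 and 5 for skeletal muscle, 3 and 6 for nerve and Schwann cells and 6 and 1 for basal keratinocytes. Their medians lay between -0.16 and 0.16 on the log2 scale. All 6 early suprabasal genes were positive (median 0.44), and 2 of them, involucrin (Ivl, 0.76) and desmocollin 1 (Dsc1, 0.64), had an adjusted p of at most 0.1 in edgeR, as did 1.15% of all genes. Their part in the levels of the 7 genes was not tested.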

How the data were processed

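RNA-Seq counts came from 24 libraries of E18.5 mouse skin. Per the labels, poly(A) RNA was made into directional libraries. The authors deposited raw counts, whole numbers per gene symbol and library. The submitters' processing notes name STAR and HTSeq, and hg19 as build although the symbols are mouse. The annotation and use of strand are not given in the sources used here, so reads of genes that overlap on opposite strands may be shared.

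Libraries sharing a title number and genotype were summed (9 pairs, 6 single libraries), and replicates were numbered by ascending title number. Genes passing filterByExpr (17094, fitted over all 3 genotypes) were scaled by TMM and tested in edgeR 4.0.16 (R 4.3.3) with its robust quasi-likelihood method and Benjamini-Hochberg adjustment over all of them. CPM uses the TMM-adjusted library size. Fold changes and SE come from this fit. All 7 genes passed the filter. Deviations used log2(CPM + 1) and 100000 permutations within genotypes. Both steps were tested on simulated data. Alternatives were DESeq2 1.42.0, RLE size factors, no filter on low counts, each title series alone, the discordant libraries as separate columns, only the 2 genotypes compared, Y-linked and erythroid covariates, and each column left out. Counts per column measure counting error only, and duplicates of 1 molecule cannot be told apart, because reads carried no molecular identifiers. At 15.3 M counts or more per column, the lowest Lnx1 value rested on 24 counts.

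Named genes are the 7, members of the lists, the 3 genes most like each in deviations, and the nearest tested gene on each side in GENCODE vM21 (GRCm38). Promoter windows come from a RefSeq table, in which Tmem56 is named Tlcd4. The 7 genes and the lists were chosen with earlier results of these data known.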

Additional observations from a re-analysis of the deposited data

Results flagged for a closer look

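In 30 groups of 5 columns (the 7 genes, the Lce1 sum and 2 scores in 3 genotypes), the gap between the highest or lowest column and its nearest neighbour was divided by the range of the group. It exceeded Dixon's critical value of 0.71 in 3 groups, where chance gives about 1.5. Tmem56 in KO replicate 2 (10.3 CPM, the highest of the KO columns) had a ratio of 0.79, and Lnx1 in the same column (13.6 CPM) had a ratio of 0.787. Both genes are therefore described above with and without that column. The third was Nfe2 in WT replicate 4, at 9.31 CPM the highest of otherwise nearly equal WT columns, with a ratio of 0.857.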

How the results depend on the processing

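All 7 genes stayed lower in KO than in WT and than in HET under each of the 24 alternatives. The number called lower against WT, 5 as reported, was 0 in title series 1 alone, 2 with only the 2 genotypes fitted, and 3 to 5 with 1 column left out. It was 3 without WT replicate 1, 2 or 3 or KO replicate 4. With the Y-linked covariate it was 4, as Lnx1 was then not called (edgeR, adjusted p = 0.143). Against HET, 4 as reported, it was 0 in title series 1 alone and 0 with only the 2 genotypes fitted, both smaller fits, and 1 to 6 with 1 column left out. None of the 7 was called in HET against WT in any fit. Of the 5, Lnx1 was called in the fewest, against WT in 9 of 24 alternatives, with adjusted p of 0.000238 to 0.551 (edgeR or DESeq2). Over all genes, 2 to 127 were called lower in KO against WT, and DESeq2 called 91. The HET against WT difference turned sign for Tmem56 (-0.22 to 0.06 with 1 column left out) and for Nfe2 (-0.01 in title series 1 alone). The correlations of Miat also turned, from -0.60 to 0.19 with the Lce1 sum and from -0.47 to 0.31 with the late differentiation score. The cause was not tested. Without KO replicate 2 the adjusted p of Tmem56 with the late score and of Lnx1 with the Lce1 sum was 0.113 each (permutation tests), and without KO replicate 1 the latter was 0.166. Relations of Tmem56, Gpsm1, Nfe2 and Sybu passed the adjustment without single KO columns, as given above. Without KO replicate 2, however, r of Gpsm1, Nfe2 and Sybu with either measure was at most 0.23. No paired analysis was possible because no title number occurs in more than one genotype. Depth limits Lnx1 in KO, with as few as 24 counts in a column.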

Other observations

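The nearest tested gene on each side of the 7 was set beside them, at distances of 1.5 kilobases (Hnrnpa1 from Nfe2) to 756.2 kilobases (Mn1 from Miat). Of the 14 nearest tested genes in the GRCm38 annotation, none was called lower in KO against WT by edgeR, beside 0.187% of all genes, 9 had a negative difference, and the median was -0.06 on the log2 scale (-0.61 to 0.77). Chic2, 295.1 kilobases beyond the Lnx1 start, was at 73.6 CPM in WT and 54.1 CPM in KO. It was the only neighbour with an adjusted p of at most 0.1 (edgeR, -0.44, adjusted p = 0.0891), beside 1.15% of all genes. Spink5, which encodes a protease inhibitor of the epidermal barrier, lies 170.4 kilobases from Gm94. Its level was 446 CPM in WT and 582 CPM in KO (edgeR, 0.39, adjusted p = 0.228). Tested genes overlap 2 of the 7 on the opposite strand, Fip1l1 at Lnx1 (0.07) and Dnlz at Gpsm1 (-0.16), and neither was called. If strand was not used in counting, reads of these pairs may have been shared, which was not tested.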
